A study of Mus musculus with 12 samples.

Results

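The Schlafen genes of the mouse were followed as a family of 7 rows (Slfn1, Slfn2, Slfn3, Slfn4, Slfn5, Slfn8 and Slfn9) out of 23472 genes in a count table of LT-HSCs, long-term haematopoietic stem cells. The members were chosen by family name, whatever their values, but with earlier results of these data known. Over the 12 libraries all 7 passed the filter on low counts, which left 13184 genes. LT-HSCs are scarce cells of the marrow from which all blood lineages are renewed lifelong, and poly-A RNA of bulk cells was sequenced. The 12 libraries came from C57BL/6 mice, 6 of them wt (cre status neg) and 6 labelled Jak1 KO (cre status pos). Every animal of both groups had received 4 doses of poly(I:C), given to trigger the deletion and itself an inducer of interferon, 4 to 6 weeks before the marrow was taken. In each genotype 3 libraries carry VD names (replicates 1 to 3) and 3 carry ZL names (replicates 4 to 6). The main fit over 12 libraries has a term for these 2 name sets, and member values are given by set. Genotype means over 6 libraries pool both sets. The labels spell out neither the cre transgene nor the deleted exons, give no age, and do not tie each library to its own animal, so the p-values rest on a spread between samples that may be technical. Because the wt animals lacked cre, an effect of cre and an effect of losing Jak1 cannot be told apart.

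Schlafen proteins, named after the German word for sleep, were first described as brakes on the growth of developing T cells. The short members Slfn1 and Slfn2 hold little more than the core domain shared by the family. Slfn3 and Slfn4 are of intermediate length, and the long members Slfn5, Slfn8 and Slfn9 carry in addition a helicase-like part at their C-terminal end. Several of them bind or cut tRNA, and several are induced by interferon. Interferon receptors use the kinase JAK1 to pass their signal to transcription factors, among them IRF9, which bind the interferon-stimulated response element in front of target genes. Whether expression of this family differs between stem cells labelled Jak1 KO and wt is the question that the comparison addresses.

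All 7 genes lie in 1 cluster of 263.8 kb on mouse chromosome 11 (GRCm38, GENCODE positions). In order they are Slfn5 from 82951349 to 82964840, Slfn9 from 82978390 to 82991830 and Slfn8 from 83002158 to 83020810, then Slfn2 from 83065112 to 83070678, Slfn1 from 83116849 to 83122670, Slfn4 from 83175186 to 83190216 and Slfn3 from 83191330 to 83215154. Slfn8 and Slfn9 are on the minus strand and the other 5 on the plus strand. The windows of 250 bases before the RefSeq transcript start (GRCm38.p6) were searched on both strands for the core of the interferon-stimulated response element, here a pair of TTTC blocks with 2 free bases between them, and for the gamma-activated site, TTCNNNGAA. The first motif was present in the windows of Slfn5, Slfn8 and Slfn9, the 3 long members, and in 2.98% of 32851 windows of this length over all genes. The second was in 0 windows of the family and in 7.02% of all windows. The 3 matching windows are shown because they belong to the members whose genotype values are described first, with the matched bases in capitals and each read 5′ to 3′ on the strand of its gene. They are chr11:82951852-82952101 on the plus strand for Slfn5, chr11:83020811-83021060 on the minus strand for Slfn8 and chr11:82991831-82992080 on the minus strand for Slfn9.
Slfn5: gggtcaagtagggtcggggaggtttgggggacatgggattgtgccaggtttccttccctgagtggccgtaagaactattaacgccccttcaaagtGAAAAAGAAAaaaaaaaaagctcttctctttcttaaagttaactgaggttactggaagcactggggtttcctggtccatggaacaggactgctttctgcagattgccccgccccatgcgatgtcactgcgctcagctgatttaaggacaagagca
Slfn8: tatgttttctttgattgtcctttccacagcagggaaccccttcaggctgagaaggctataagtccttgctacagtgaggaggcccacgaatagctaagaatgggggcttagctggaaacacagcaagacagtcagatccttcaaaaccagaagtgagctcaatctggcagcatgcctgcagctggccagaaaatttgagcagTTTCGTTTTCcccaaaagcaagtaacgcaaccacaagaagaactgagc
Slfn9: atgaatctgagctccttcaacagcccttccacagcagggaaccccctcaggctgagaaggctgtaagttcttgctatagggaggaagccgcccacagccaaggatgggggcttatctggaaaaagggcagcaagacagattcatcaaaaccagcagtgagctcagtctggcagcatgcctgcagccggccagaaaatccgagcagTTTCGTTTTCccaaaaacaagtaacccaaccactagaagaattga
In Slfn5 the match reads on the opposite strand and runs from position -155 to -146 relative to the start, within a stretch rich in A. In Slfn8 and Slfn9 the same 10 letters stand at -48 to -39 and at -45 to -36. The windows of Slfn8 and Slfn9 are alike well beyond the match, so their matches are not separate finds. A second RefSeq start of Slfn8 places the same site at -136 to -127. The Slfn5 window lies inside the longer GENCODE gene model. A match is a description of the sequence and says nothing of binding in these cells.

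**Figure D1:**
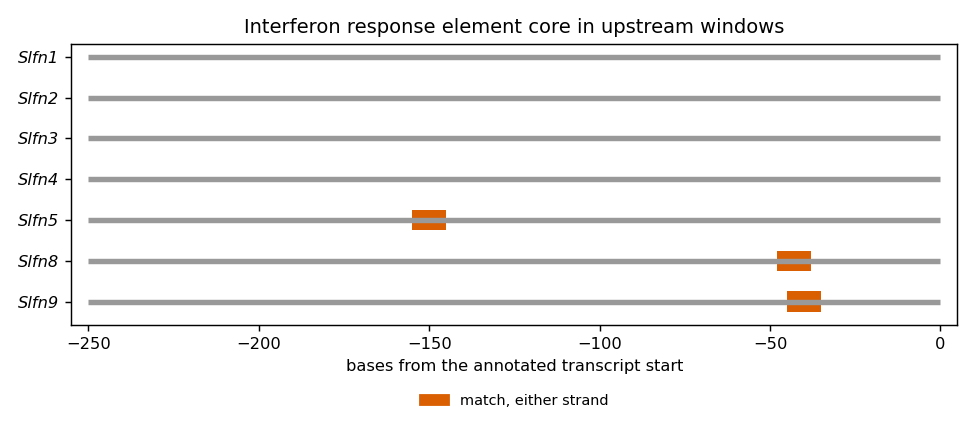
Position of the interferon-stimulated response element core (orange, either strand) in the 250 bases before the first RefSeq start of each member, on an axis in bases from the start. Slfn5 has 1 match at -155 to -146, Slfn8 has 1 at -48 to -39 and Slfn9 has 1 at -45 to -36, and the other 4 grey windows hold none.

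Sequencing depth ran from 8989965 to 28701855 counts per library, and Rn45s, a ribosomal RNA precursor gene, held between 14.8% and 22.6% of the counts in VD but 0.511% to 0.950% in ZL. Within ZL the libraries differed in how counts depend on exon length, with a Spearman correlation across 12363 genes of the deviation from the set mean with length of -0.52 in Jak1 KO 4 and of 0.45 and 0.38 in Jak1 KO 6 and wt 6. All 11 LT-HSC markers (Procr, Slamf1, Hlf and others) had counts in every group. So did all 8 listed neutrophil genes and all 5 megakaryocyte genes, so having counts does not show purity. The T-cell receptor subunits Cd3e, Cd3d and Cd3g reached at most 0.469 normalised CPM (counts scaled to a common library total). The NK cell gene Gzma was at 0. Other genes of the T-cell and NK lists were present, with Lat at 65.03 to 174 CPM and Lck at 10.3 to 21.9 CPM. Nkg7 was at 12.9 to 186 CPM and Klrb1c at 1.91 to 13.01 CPM, and the part of these genes' cell types in the values below was not tested. Jak1 itself stood at 374 ± 45.3 CPM in wt and 422 ± 161 CPM in the libraries labelled Jak1 KO (SD, n = 6 each, edgeR adjusted p = 0.945). Which exons were removed is not given, and reads from the remaining exons still count towards the gene, so this value does not check the labels.

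Slfn2, Slfn8 and Slfn9 made up most of the Schlafen RNA of LT-HSCs once counts were divided by exon length. In CPM per kb, Slfn2 had a median of 18.6 over the 6 VD libraries and 31.0 over the 6 ZL libraries, which placed it at the 78.0th and 84.3rd percentile of 12363 tested genes with an exon length. Slfn2 is the member that is needed to keep T cells and monocytes at rest in the mouse. Slfn8 followed at 11.1 and 12.6 CPM per kb, and Slfn9 at 9.54 and 13.2. These 2 long members are close relatives of each other. Slfn3 stood at 2.91 and 1.91 CPM per kb and Slfn5 at 2.31 and 2.44. In every library Slfn2 alone accounted for at least 29.4% of the family's summed CPM per kb. In the wt VD libraries the ranges of neighbours in this order did not overlap down to Slfn9 and Slfn5, while Slfn5, Slfn3, Slfn4 and Slfn1 overlapped stepwise. In the wt ZL libraries Slfn9 and Slfn8 overlapped, as did Slfn5 and Slfn3.

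The scarcest members differed most between name sets. Slfn1 was at 1.53 CPM per kb in VD and at 0 in ZL as medians, and Slfn4 at 2.00 and 0.0615. Among the 7 genes these 2 were the ones whose 6 ZL libraries all lay below all 6 VD libraries.

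**Figure D2:**
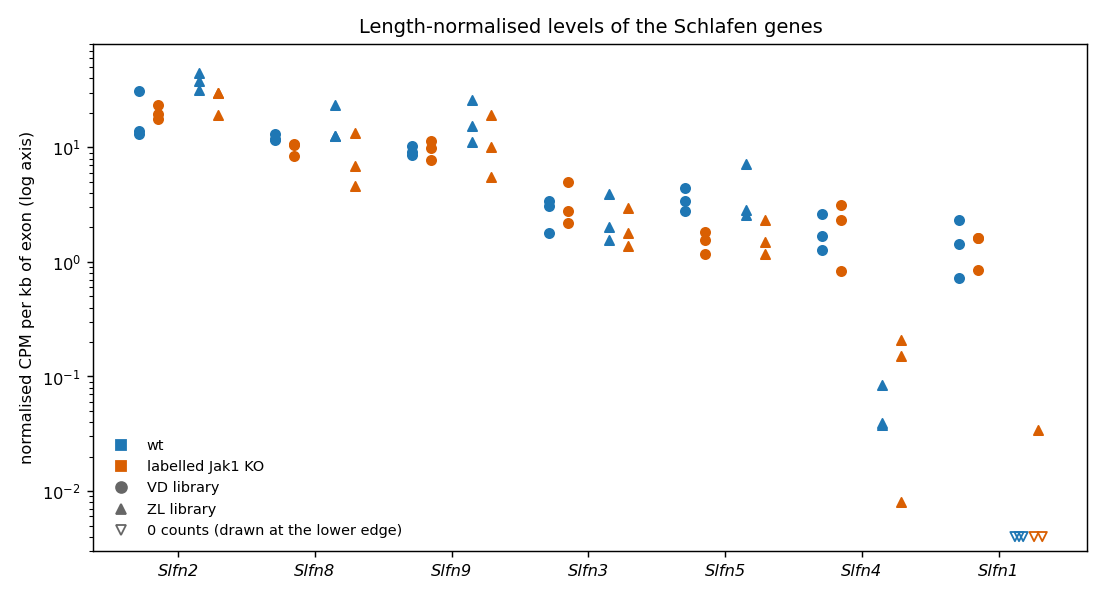
Normalised CPM per kb of exon (log axis) of each member in every library, with circles for VD, triangles for ZL, blue for wt and orange for libraries labelled Jak1 KO. Slfn2 is highest with medians of 18.6 and 31.0, and Slfn4 and Slfn1 drop in ZL, where 5 of 6 libraries had 0 Slfn1 counts (open symbols at the lower edge).

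Near-identical stretches limit how well some members can be told apart. Of the 50-base words in the GENCODE transcripts of Slfn8, 14.6% also occur in another Schlafen transcript, and the share is 11.2% for Slfn9, 8.16% for Slfn4, 7.39% for Slfn3, 4.27% for Slfn2 and 0.606% for Slfn1. Slfn5 shares 0 of 6324 such words. The words of Slfn8 are shared with Slfn9 and with the pseudogene Slfn10-ps, and those of Slfn3 with Slfn4, so the separate values of these genes are uncertain to that extent. Slfn5 has 559 exon bases in common with an antisense transcript, Slfn5os, which the table lists as 1700003F17Rik. That row held at most 6 counts in any library, against 61 to 1232 for Slfn5.

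Over the 12 libraries 0 of the 7 members passed edgeR's quasi-likelihood test between genotypes at an adjusted p of 0.05, where 0.44% of all genes did (0.432% lower and 0.00758% higher). At an unadjusted p under 0.05 there were 2 members, Slfn5 and Slfn8, against 5.06% of all genes. DESeq2's Wald test called 1 member, Slfn5, and 0.961% of genes. The family's median log2 fold change (labelled Jak1 KO over wt) was -0.24, with 5 of 7 values below 0, beside a median of -0.0060 and 51% of values below 0 over all genes. By name set the family median was 0.080 in VD (7 members) and -0.60 in ZL (5 members), beside 0.0048 and -0.0028 over all genes. Slfn5 and Slfn8 were below 0 in both sets. In edgeR's test of a genotype effect that differs between sets, 0 of 7 members and 0% of all genes passed. At an unadjusted p under 0.05 there were 0 members and 1.38% of genes.

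**Figure D3:**
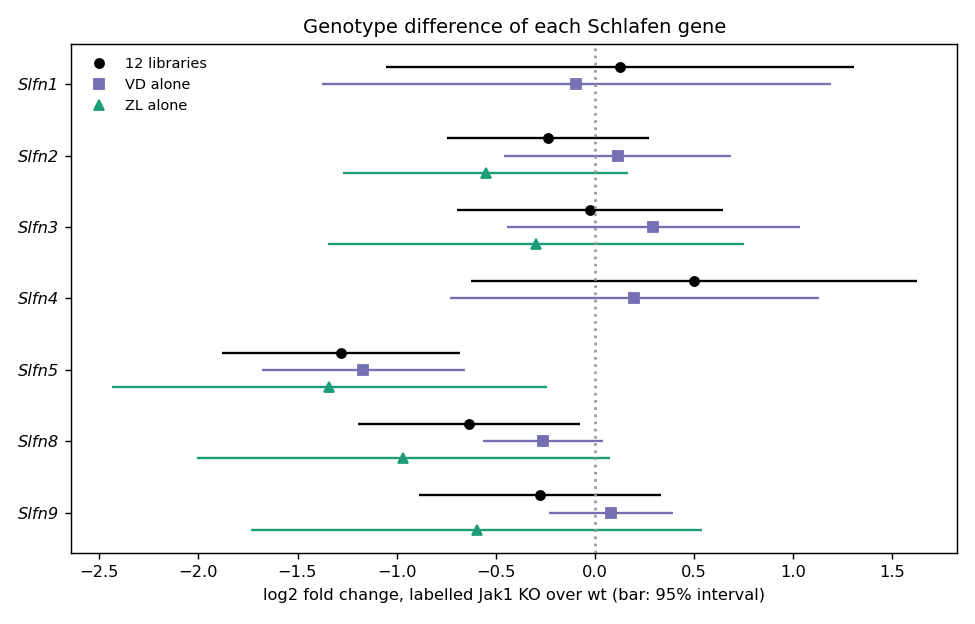
Log2 fold change of the libraries labelled Jak1 KO over wt with its 95% interval for each member, over 12 libraries (black circles), VD alone (squares) and ZL alone (triangles, not tested for Slfn1 and Slfn4). The Slfn5 intervals lie below 0 in all 3 fits, while those of Slfn1, Slfn2, Slfn3, Slfn4 and Slfn9 span 0 in each.

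Slfn5, a nuclear member that is induced by interferon, was lower in every library labelled Jak1 KO than in every wt library of its name set. In VD it stood at 27.7, 21.6 and 17.7 CPM in wt 1 to 3 and at 11.6, 7.44 and 9.84 CPM in Jak1 KO 1 to 3. In ZL it stood at 16.3, 18.1 and 45.6 CPM in wt 4 to 6 and at 9.43, 7.36 and 14.6 CPM in Jak1 KO 4 to 6. The genotypes did not overlap in either set, an arrangement that 0.963% of all tested genes showed in this direction and 0.425% in the other. The wt 6 library was far above the rest. The difference over 12 libraries was a log2 fold change of -1.28 (SE 0.28, 95% interval -1.88 to -0.68), or 2.43-fold, and edgeR's adjusted p was 0.0788.

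In the VD libraries alone Slfn5 fell, with a log2 fold change of -1.17 (SE 0.24, edgeR adjusted p = 0.0272). It was the 1 member called there, where 1.15% of genes were called, 0.76% lower and 0.395% higher. That call was lost without wt 1 (adjusted p = 0.207), wt 2 (0.0816), Jak1 KO 1 (0.0624) or Jak1 KO 3 (0.0683). In ZL alone the value was -1.34 (SE 0.48, edgeR adjusted p = 0.946). There edgeR called 0 of the 5 members tested and 0% of all genes, and at an unadjusted p under 0.05 Slfn5 and 1.63% of genes. Without wt 6 the 12-library value was -0.99. Over 12 libraries the test did pass with DESeq2 (adjusted p = 0.00176), with limma-voom and sample quality weights (0.00335), with an offset for the exon length trend (0.0435), with no filter on low counts (edgeR, 0.0364) and without Jak1 KO 4, Jak1 KO 6 and wt 6 together (edgeR, 0.00901). Those fits called 0.961%, 1.67%, 0.569%, 0.287% and 0.727% of all genes, in the same order. It passed in none of the 12 fits that left out 1 library (edgeR adjusted p from 0.0547 to 0.267).

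A summed list of megakaryocyte markers moved with the same contrast, and its single genes are not described by genotype here. The sum over the 5 genes Pf4, Itga2b, Gp1bb, Gp9 and Vwf, each with counts in every group, was 1005 to 1371 CPM in wt libraries and 439 to 743 CPM in those labelled Jak1 KO, and its part in the Slfn5 difference was not tested. In bulk RNA, fewer cells of a type and less RNA per cell cannot be told apart.

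**Figure D4:**
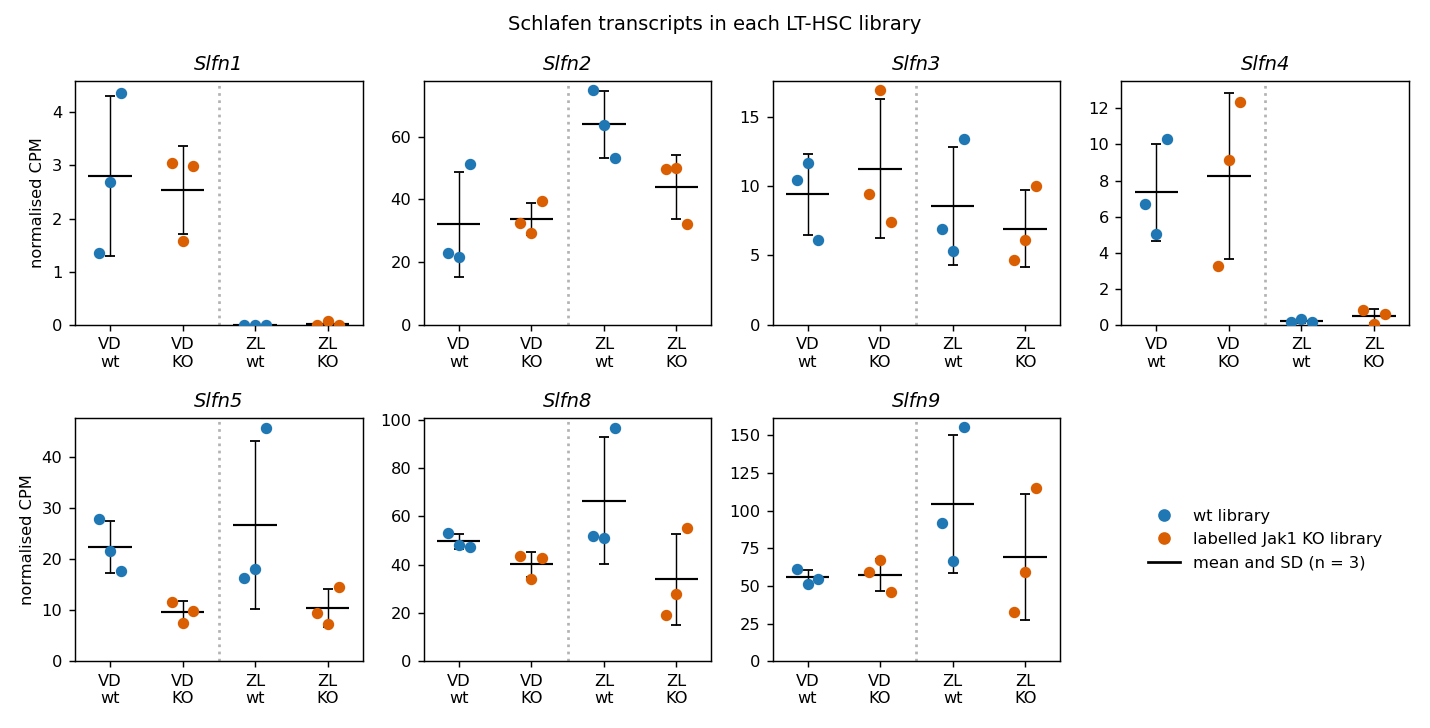
Normalised CPM of each member in the 12 libraries, as points for wt (blue) and labelled Jak1 KO (orange) in the VD and ZL sets, with the mean and SD of each 3 (axes differ between panels and start at 0). For Slfn5 all orange points lie below the blue ones of their set, Slfn8 does so in VD, and Slfn1 and Slfn4 are near 0 throughout ZL.

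Slfn8, a long member with the helicase-like part, showed the same order in VD but not in ZL. It stood at 53.2, 48.2 and 47.6 CPM in wt 1 to 3 and at 43.6, 34.2 and 42.9 CPM in Jak1 KO 1 to 3. In this set the genotypes did not overlap, which held in this direction for 13.2% of all genes. In ZL it stood at 51.9, 51.0 and 96.8 CPM in wt 4 to 6 and at 19.0, 28.02 and 55.1 CPM in Jak1 KO 4 to 6. Jak1 KO 6 thus lay above 2 of the 3 wt libraries. The log2 fold change was -0.64 (SE 0.26, 95% interval -1.20 to -0.078, edgeR adjusted p = 0.849), with -0.26 in VD and -0.97 in ZL.

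Slfn9, the neighbour and close relative of Slfn8, overlapped between genotypes in both sets. It stood at 61.3, 51.5 and 54.6 CPM in wt 1 to 3 and at 59.2, 67.2 and 45.9 CPM in Jak1 KO 1 to 3. In ZL it spanned 66.4 to 155 CPM in wt and 33.0 to 115 CPM in the libraries labelled Jak1 KO. Its lowest value was in Jak1 KO 4 and its 2 highest in wt 6 and Jak1 KO 6, the libraries with the lowest and the 2 highest correlations of counts with exon length. Slfn8 had its lowest value and its 2 highest in the same libraries. The part of that trend in the Slfn8 and Slfn9 values was not tested. The Slfn9 log2 fold change was -0.28 (SE 0.28, 95% interval -0.89 to 0.33), and with the offset for exon length it was -0.22. With that offset Slfn8 was at -0.60.

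The Slfn2 values of the genotypes were separate in ZL and overlapped in VD. It stood at 74.8, 63.9 and 53.2 CPM in wt 4 to 6 and at 49.6, 50.04 and 32.2 CPM in Jak1 KO 4 to 6, without overlap, as did 2.34% of all genes in this set and direction. In VD it stood at 23.0, 21.8 and 51.3 CPM in wt 1 to 3 and at 32.6, 29.3 and 39.4 CPM in Jak1 KO 1 to 3, where the range of the wt libraries contained the other. The log2 fold change was 0.11 in VD (95% interval -0.46 to 0.69), -0.55 in ZL (-1.27 to 0.17) and -0.24 over all libraries (-0.74 to 0.27, edgeR adjusted p = 0.945).

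Slfn3, known from studies of T cells and of the gut epithelium, was at 6.12 to 11.7 CPM in wt and 7.40 to 17.0 CPM in Jak1 KO libraries of VD, and at 5.35 to 13.4 and 4.68 to 10.04 CPM in ZL. The genotypes overlapped in both sets, and the log2 fold change was -0.025 with a 95% interval of -0.70 to 0.65. Its sign turned under several alternatives. Slfn4, a member best known from macrophages and other myeloid cells, had a log2 fold change of 0.50 (95% interval -0.63 to 1.63), and Slfn1, which restrains T-cell growth, of 0.13 (-1.05 to 1.305). The intervals of Slfn1 and Slfn4 include differences of over 1 on the log2 scale in 1 or both directions, so the data leave their genotype difference poorly determined. None of the 7 genes passed the test of a genotype effect that differs between name sets, in which edgeR called 0% of all genes, and 0 members and 1.38% of genes had an unadjusted p under 0.05.

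Slfn1 and Slfn4 were nearly absent from the ZL libraries and present in every VD library. Slfn1 was at 1.36, 2.69 and 4.37 CPM in wt 1 to 3 and at 3.04, 1.59 and 3.00 CPM in Jak1 KO 1 to 3. In ZL it had 0 counts in 5 libraries and 2 counts in Jak1 KO 5. With 177 counts in VD, the ratio of VD to ZL was 203 after scaling for depth, with an exact 95% interval of 55.5 to 1692 for counting error only. Slfn4 was at 6.72, 5.05 and 10.3 CPM in wt 1 to 3 and at 3.28, 9.15 and 12.4 CPM in Jak1 KO 1 to 3. In ZL it was at 0.155, 0.333 and 0.148 CPM in wt 4 to 6 and at 0.830, 0.0317 and 0.598 CPM in Jak1 KO 4 to 6, from 45 counts in all. The VD to ZL ratio of Slfn4 was 26.04 (exact 95% interval 19.2 to 36.1). Every ZL library lay below every VD library for both genes, as it did for 15.8% of all genes, with 22.6% in the opposite order.

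The set term of the 12-library fit called 3 members, Slfn1, Slfn4 and Slfn2, and 60% of all genes (24.5% lower and 35.4% higher in ZL), so a call as such says little about the family. The size of the difference was less common. Slfn1 had a log2 fold change ZL over VD of -7.10 (SE 0.72, edgeR adjusted p = 2.27e-06). Slfn4 was at -4.60 (SE 0.58, edgeR adjusted p = 1.58e-05). These 2 were among the 0.599% of genes called with a value below -4. Both passed the filter on low counts over 12 libraries but not in ZL alone, so their VD counts brought them into this test. Their p-values and that share are therefore descriptions. With no filter on low counts the values were -7.17 and -4.67. The fitted Slfn1 value depends on the prior count and was -8.54 without Jak1 KO 5, the library that holds its 2 ZL counts. Slfn2 was higher in ZL, with a log2 fold change of 0.69 (SE 0.24, edgeR adjusted p = 0.0221), but the median over all genes was itself 0.20. With DESeq2's size factors that median was 0.058 and Slfn2 at 0.56 no longer passed (edgeR adjusted p = 0.0634), and the call was also lost with upper quartile factors (0.0547), without Rn45s and Lars2 (0.0781), and without wt 1 (0.0595), wt 2 (0.0537) or Jak1 KO 4 (0.0963). Relative to the median of all genes Slfn2 was 0.49 higher with the first scaling and 0.50 higher with the second, but 0.088 higher with no filter on low counts, where that median was 0.55. Slfn9 (0.59, adjusted p = 0.0905), Slfn5 (0.19), Slfn8 (0.093) and Slfn3 (-0.41) did not pass, except Slfn9 without Jak1 KO 4 (0.0299).

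Several markers of neutrophils moved with the name set as Slfn1 and Slfn4 did. The sum of the 8 listed genes, all with counts in each group, was 548 to 1421 CPM in VD libraries and 95.3 to 259.9 CPM in ZL libraries. S100a8, S100a9, Ngp, Camp and Ltf did not overlap between sets. S100a8 was at 68.3 to 237 CPM in VD and 1.79 to 6.11 CPM in ZL, and Ngp at 106 to 289 and 0.593 to 1.63 CPM. Elane, Mpo and Prtn3 overlapped. Elane spanned 0.0678 to 28.9 CPM in VD and 0.0388 to 0.508 CPM in ZL, and Mpo 1.90 to 73.2 and 1.55 to 3.68 CPM. Prtn3 spanned 102 to 149.9 CPM in VD and 85.4 to 246 CPM in ZL. Of the monocyte genes, Ly6c2 was at 1.29 to 13.03 CPM in VD and at most 0.0797 CPM in ZL, while Lyz2 was at 213 to 288 and 337 to 951 CPM. The summed monocyte list, 7 of its 8 genes being in the table and all 7 with counts in each group, ran from 217 to 309.5 CPM in VD and from 339 to 955 CPM in ZL. T-cell, NK and B-cell lists were not higher in VD than in ZL, at 86.3 to 111, 16.6 to 60.2 and 28.2 to 45.1 CPM in VD against 86.9 to 197, 40.04 to 194 and 42.3 to 143 CPM in ZL. The part of other cells in the Slfn1 and Slfn4 values was not tested, and the labels do not say how the name sets differ.

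The neighbours of the cluster gave no genotype call. Of the 5 protein-coding genes nearest on each side (Slfn14 among them), 7 were tested and 0 passed (edgeR). At an unadjusted p under 0.05 there were 0 as well, and the log2 fold changes ran from -0.22 to 1.10. Over all genes 0.44% passed and 5.06% had an unadjusted p under 0.05, so 0 of 7 is near those shares. Unc45b, a myosin chaperone gene next to Slfn5, was at -0.14 (SE 0.31), and Nle1, a ribosome assembly gene, at -0.15 (SE 0.22). Inside the cluster the pseudogene Slfn10-ps was at -0.14 between genotypes. Between sets it was 3.46-fold higher in ZL (log2 fold change 1.79, SE 0.24, edgeR adjusted p = 2.40e-05), at 5.86 to 12.3 CPM in VD and 18.3 to 38.4 CPM in ZL. Slfn14, a further family gene on the same chromosome, had at most 9 counts in any library, and Slfnl1, a Schlafen-like gene on chromosome 4, at most 8.

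**Figure D5:**
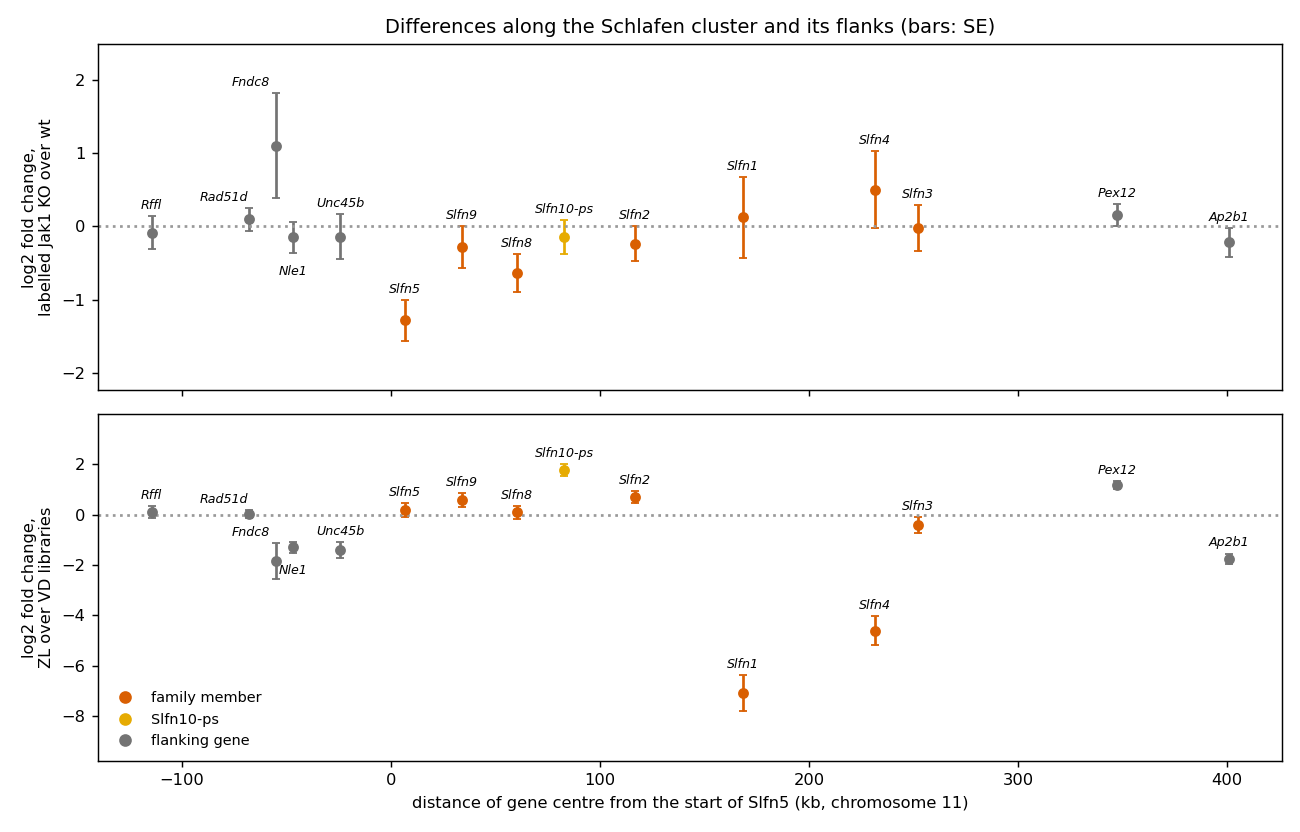
Log2 fold change with SE of Schlafen members (orange), Slfn10-ps (yellow) and flanking genes (grey) against the distance of the gene centre from the start of Slfn5 in kb. The upper panel compares genotypes, with Slfn5 lowest at -1.28, and the lower panel compares ZL with VD libraries, with Slfn1 at -7.10 and Slfn4 at -4.60.

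The interferon pathway around these genes was read from fixed lists, which were chosen with earlier results of these data known. Among the receptor and signalling genes, Irf9 fell from 123 to 47.1 CPM (log2 fold change -1.35, edgeR adjusted p = 0.00034), and Usp18, which encodes a protease that removes ISG15 and dampens the receptor, fell from 30.5 to 12.9 CPM (-1.23, edgeR adjusted p = 0.0283). The receptor subunits did not pass, at -0.14 for Ifnar1, 0.12 for Ifnar2, 0.11 for Ifngr1 and 0.28 for Ifngr2. Of 35 interferon-stimulated genes outside the family 18 fell and 0 rose (edgeR), with a median of -1.02 and 35 of 35 below 0. Over all genes tested 0.432% fell and 0.00758% rose, with a median of -0.0060 and 51% below 0. Those with the smallest p were Iigp1 (-2.63), Igtp (-1.39) and Ifi44 (-2.01). By value Slfn5 at -1.28 lay below the median of that list and the other 6 members lay above it.

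Genes linked to what Schlafen proteins do showed no call. Of 6 genes of tRNA cleavage and protection 0 passed and 0 had an unadjusted p under 0.05 (edgeR), with a median of 0.0052. Rnh1, the inhibitor of the tRNA-cutting ribonuclease angiogenin, was at 0.20 (SE 0.20). Of 9 genes of the cell cycle and quiescence 0 passed and 0 had an unadjusted p under 0.05 (edgeR), with a median of -0.12. Over all genes 0.44% passed and 5.06% had an unadjusted p under 0.05, so 0 in lists of this size is near those shares. Ccnd1, which encodes the cyclin D1 that Slfn1 is reported to hold down, was at 59.4 CPM in wt and 49.7 CPM in the libraries labelled Jak1 KO (-0.19, SE 0.22).

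The members fell into different patterns across libraries. After subtraction of each name set's mean log2 CPM, Slfn8 correlated with Slfn9 at a Pearson r of 0.87 and with Slfn5 at 0.83 over the 12 libraries, while Slfn2 correlated with Slfn5, Slfn8 and Slfn9 at -0.084, 0.012 and -0.13. The genes most like Slfn5 were Sp100, a nuclear body protein gene (r = 0.97), Shkbp1 (0.96) and Oas3 (0.94). Those most like Slfn8 were Stat2 (0.98), Ddx58, the RNA sensor RIG-I (0.98), and Adar, an RNA-editing enzyme (0.98). Slfn9 was most like Arhgap11a (0.99), Prx (0.99) and Ccp110 (0.99), and Slfn3 like Cers6 (0.94), Parp3 (0.93) and Mbd5 (0.93). Slfn2 was most like Chn1 (0.90), Mfsd7a (0.88) and C1ra (0.84), Slfn4 like Pi16 (0.88), Ccr1 (0.85) and Sla2 (0.82), and Slfn1 like Il1rapl2 (0.88), Zfp658 (0.86) and Kif21a (0.80). In ZL the Slfn1 values come from 2 counts in all and the Slfn4 values from 1 to 15 counts per library. All correlations share the same libraries, their depths and their trends on exon length, and they are given as descriptions without a test. The genotype difference was not subtracted and remains in the correlated values. Of the 50-base words of Slfn8, 9.30% also occur in Slfn9, so their values may not be fully separate.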

How the data were processed

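The values used are raw counts of reads on each gene, deposited as 1 table of 12 libraries. STAR 2.3.0e, featureCounts, Subread and mm10 are named, without roles, in the submitters' processing notes, and per the labels' protocols TRIzol RNA went into poly-A TruSeq version 2 libraries. Neither annotation nor strandedness is given in the sources used here, so antisense reads cannot be told apart.

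Columns were matched through the sample descriptions and groups through the titles. The models were fitted with edgeR 4.0.16 under R 4.3.3 (filterByExpr, TMM, terms for name set and genotype, quasi-likelihood F test, Benjamini-Hochberg over all genes tested, threshold 0.05). The interaction, each set alone, and alternatives with DESeq2 1.42.0 and limma 3.58.1 were also fitted. The SE was derived from the log2 fold change and its F statistic. Values after ± are SDs. CPM uses TMM-scaled library sizes, log2 CPM a prior count of 2, and exon lengths come from GENCODE M21. Intervals are at 95%, and those of count ratios cover counting error only.

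The members, lists and naming rule (the 7 members, other Schlafen rows, flanking genes, fixed lists, the 3 genes most alike per member, uncharacterised models passed over) were chosen with earlier results of these data known. On simulated counts for the 12-library comparison (13184 genes, 100 changed by each size) edgeR recovered 42% of genes changed by -1 and 83% changed by -2 on the log2 scale, with 3.85% false calls. Chi-square over its degrees of freedom was 13.8 or more for each pair of replicates within a set, so none were treated as duplicates. A gene of the receptor and signalling list, and the list's counts, are not reported here.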

Additional observations from a re-analysis of the deposited data

Results flagged for a closer look

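Slfn8 in wt 6 stood apart from the other wt libraries. It was at 96.8 CPM, with the next highest wt library at 53.2 CPM, a gap of 0.886 of the whole range of the 6 libraries. Of 14 groups examined (7 members in 2 genotypes) this was the 1 so marked, and chance marks about 5% of groups. Each group held libraries of both name sets, so that rate need not hold here. Without wt 6 the Slfn8 log2 fold change between genotypes was -0.43 in place of -0.64. The same library held the highest Slfn5 value (45.6 CPM) and the highest Slfn9 value (155 CPM). Its counts correlated with exon length at 0.38, and the part of that trend in these values was not tested.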

How the results depend on the processing

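The count of members past the threshold over 12 libraries, 0, became 1 (Slfn5 each time) with no filter on low counts, with the DESeq2 Wald test, with limma-voom and quality weights, with VD libraries alone, without Jak1 KO 4, Jak1 KO 6 and wt 6 together, at an adjusted p of 0.1 and with the offset for exon length, the last added after the data were seen. It was 0 whenever 1 library was left out (12 fits) and 0 in ZL alone. With the replicate number as a block it was also 1 (Slfn5 log2 fold change -1.23, adjusted p = 0.00727), and genes called went from 58 to 72. Same-numbered libraries correlated between 0.043 and 0.67, with 3 of 6 matching their own number best, so the numbers were not taken as pairs. The cause of these changes was not tested.

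Genes called, 58, ranged from 39 to 77 when 1 library was left out and were 126 with DESeq2, 220 with limma-voom, 14 with no set term, 149 in VD alone, 0 in ZL alone and 96 without the 3 libraries. In VD alone the count of members, 1, ranged from 0 to 1 when 1 library was left out, and Slfn5 ran from -1.32 to -0.995. The set term called 2 to 3 members in all 18 alternatives. The alternatives for the set term and for VD alone were chosen after seeing the data. Slfn5 and Slfn8 kept their sign between genotypes in all 27 alternatives.

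Values near 0 changed sign. For Slfn3 the genotype value was 0.022 with DESeq2 size factors, 0.025 with upper quartile factors, 0.016 with no filter, 0.022 with the DESeq2 test, 0.11 with limma-voom, 0.016 with no set term, 0.29 in VD alone, 0.21 without the 3 libraries and -0.24 to 0.22 when 1 library was left out. For Slfn4 it was -0.36 with limma-voom and -0.12 without the 3 libraries. For Slfn1 it was -0.11 with no set term, -0.093 in VD alone and -0.13 to 0.61 when 1 library was left out. In VD alone Slfn2 was at 0.11 and Slfn9 at 0.080. Between sets Slfn8 was at -0.068 with DESeq2 size factors, -0.023 with upper quartile factors, -0.068 without Rn45s and Lars2 and -0.11 to 0.19 when 1 library was left out, and Slfn5 at -0.10 to 0.30. In ZL the Slfn1 values rest on 2 counts out of 141716927 summed library counts, against 177 out of 71430759 in VD.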
